A study of Mus musculus with 6 samples.

Results

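The epidermal differentiation complex is a cluster of genes for the cornified layer of the skin on mouse chromosome 3. Its members were taken as every row of the deposited gene table with a start in the 1.6 Mb after position 92 Mb of chromosome 3 (mm10), which gave 52 of 17564 rows. The rows of Sprr2a1 and Sprr2a2 carry the same coordinates and the same values, so they were counted once, as Sprr2a1/2a2, and 51 loci remain. They hold 15 small proline-rich (Sprr) genes, 21 late cornified envelope (Lce) genes, 6 fused S100-type genes, 6 other envelope genes, 2 S100 genes and 1 peptidoglycan recognition gene. No row in this range carried the symbol Flg, so Flg was not analysed here and the fused S100-type counts and sums do not include it. The label of the region as an epidermal gene cluster fits its contents, which include Lor and Ivl, the genes of loricrin and involucrin.

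Whole back skin of wild-type C57BL/6 mice aged 8 weeks was studied by RNA sequencing of whole tissue, with 3 samples in each of 2 groups. Both groups were shaved and depilated. The treated group also received 3 µg of SspA, the V8 protease of staphylococci, with 10 µg of house dust mite extract (HDM) on the skin surface, a second time 3 days later, and its skin was taken 7 days after the first application. The untreated group had no SspA or HDM, and the labels give no day of collection for it. Exposure therefore cannot be told apart from a difference in time since depilation, if there was one. The comparison asks how expression of the cluster differs between exposed and unexposed skin. Nothing in the labels tells whether the 3 samples of each group were separate mice, so a p-value here measures only a spread between samples that may be technical. Below, U1 to U3 are untreated replicates 1 to 3 and T1 to T3 treated replicates 1 to 3.

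As keratinocytes leave the basal layer they switch on the genes of this cluster in steps, and in the outermost living layer transglutaminases cross-link many of the products into the cornified envelope, a protein shell beneath the plasma membrane. Loricrin is a main component of that shell, involucrin is an early scaffold, and the small proline-rich proteins act as flexible cross-bridges whose genes are known to respond to stress and injury. Late cornified envelope proteins join the shell late, and the fused S100-type proteins, which pair a calcium-binding S100 domain with long repeats, bind keratin filaments or the envelope in the epidermis, the tongue or the hair follicle.

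The values are the authors' scaled reads per gene, which were whole multiples of 1 read in each library (100% of values within 0.1 of a whole number). The libraries held 4928245 (U2) to 7545567 (T3) reads, and their scaled values summed to about the same total. The cluster took 0.286 ± 0.0234% of all scaled reads in untreated and 0.279 ± 0.0325% in treated skin (SD, n = 3), a difference smaller than the spread between replicates. Epidermal keratin markers other than Krt2 were abundant in every library. The sum over all 6 markers was 8760 to 9651 scaled reads in untreated and 6926 to 9087 in treated skin, and 1 of the 5 tested was lower. Krt2 had 14.28, 14.15 and 4.54 scaled reads in untreated and 1.13, 2.18 and 5.04 in treated skin, too few to test. In whole skin, fewer cells of a type and less RNA per cell cannot be told apart. No gene of any library had more than 0.923 reads per base of transcript, and for the cluster the highest value was 0.778, in Lor. Whether reads from the same position were counted once is not given in the sources used here. Where it bears on a value, the change is also given with reads estimated from the share of transcript positions already filled, a calculation that assumes 1 read per position. T3, the deepest library, was the treated library nearest to the untreated mean at 38 of 51 loci, so values without it are given where they change a call.

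The composition of the cluster differed between treated and untreated skin. Of the 50 loci with enough reads to test, treated skin was higher at 19 and lower at 7 (limma on log2 of scaled reads + 1, adjusted p under 0.05 over 15534 genes). That is 38% and 14% of the tested loci, beside 9.26% of all tested genes higher and 7.23% lower. Treated values lay wholly above untreated ones at 20 of 51 loci and wholly below at 12, where the shares over all tested genes were 21.7% and 15.6%. The families went separate ways: 10 of 14 tested Sprr genes rose and 0 fell, 3 Lce genes rose and 4 of 21 fell, and 4 of 6 fused S100-type genes rose and 1 fell. The median log2 fold change was 2.22 for Sprr, -0.34 for Lce and 1.37 for the fused S100-type genes, beside 0.032 for all tested genes. The authors' deposited table has 18 loci of the cluster higher and 10 lower, against 7.26% and 7.56% of all its genes. The edgeR quasi-likelihood test on the recovered reads called 18 higher and 6 lower, against 8.04% and 7.75% of all genes.

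**Figure D1:**
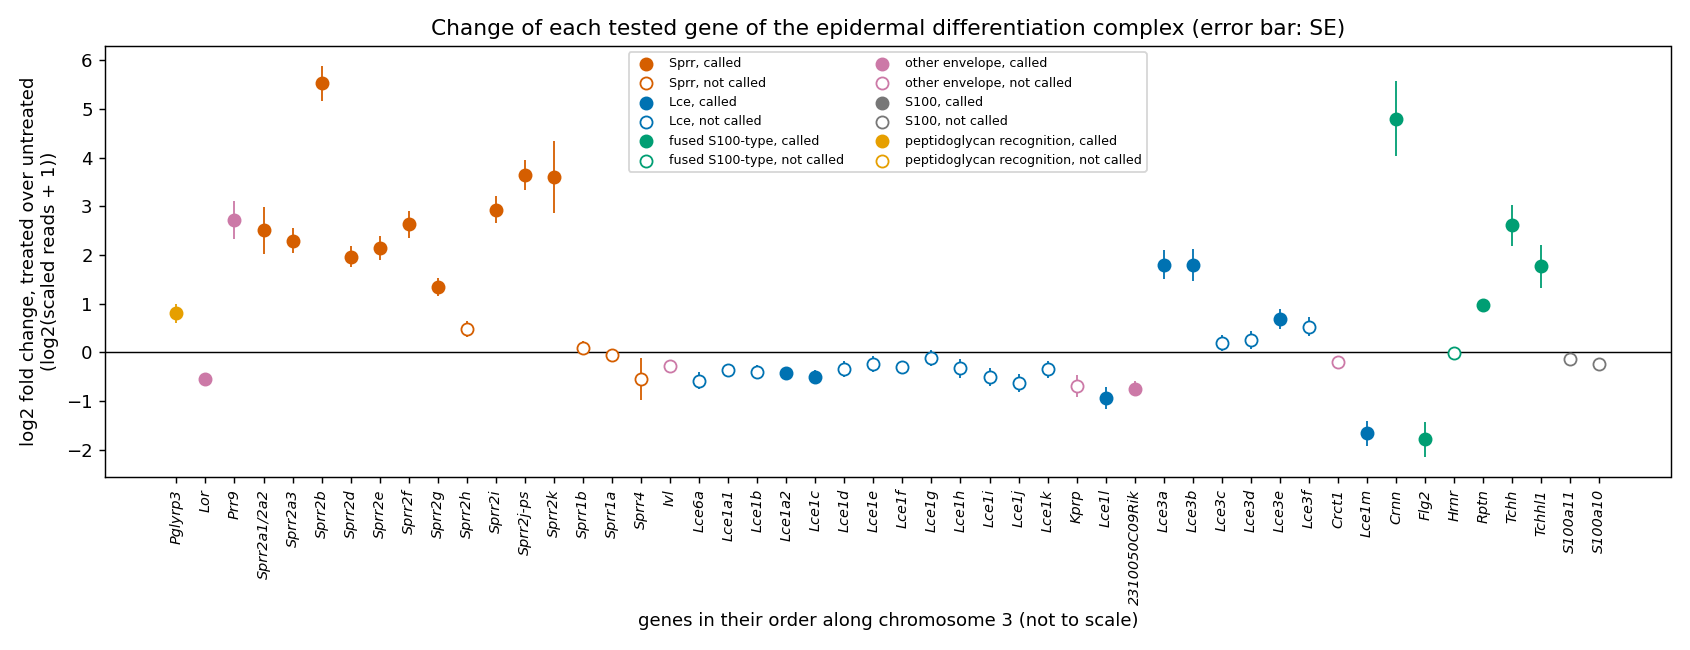
Log2 fold change of each of the 50 tested loci (treated over untreated, on the log2(scaled reads + 1) scale; bars are the SE), in gene order along chromosome 3, with filled points for genes called at adjusted p under 0.05. The Sprr2 block is above 0 throughout, with Sprr2b highest at 5.52, the Lce1 genes all lie below 0, the 6 Lce3 genes above 0, and the fused S100-type genes run from -1.78 (Flg2) to 4.80 (Crnn).

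In the plot of changes in gene order, the sign of the fold change was shared within the Sprr2, Lce1 and Lce3 subfamilies, though not all of their members were called. All 11 Sprr2 loci had a positive fold change, all 14 Lce1 genes a negative one and all 6 Lce3 genes a positive one. Lce1m is separated from the other Lce1 genes by the Lce3 block and Crct1, and its change was that of the Lce1 genes in sign. Lce1g was at 0.013 without U2. Elsewhere neighbours differed, with Crnn at 4.80 beside Flg2 at -1.78. Members of 1 subfamily share sequence, so their values are not independent of each other.

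Small proline-rich genes of the Sprr2 subfamily rose at 10 of 11 loci, and their values in treated skin lay above those in untreated skin without overlap at those 10. Summed over the subfamily, the untreated libraries U1 to U3 had 604, 697 and 651 scaled reads and the treated libraries T1 to T3 had 2801, 2475 and 1852, a 3.65-fold higher mean. Sprr2b stood out. It had 2.20, 7.72 and 5.68 scaled reads in the untreated libraries and 319, 244 and 231 in the treated libraries. Behind these values were 13 reads in untreated and 781 in treated skin, a ratio of 51.5 (95% exact interval 29.96 to 97.2, counting error only). The log2 fold change of Sprr2b was 5.52 ± 0.37 (SE, adjusted p = 0.00039 by limma).

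Per kilobase of transcript, Sprr2b had a mean level of 7.48 scaled reads in untreated and 381 in treated skin. The same level was 167 and 648 for Sprr2d and 344 and 482 for Sprr2h. These 3 genes thus lay farther apart in untreated than in treated skin. The next largest changes of the subfamily were at 3 loci. Sprr2i had 20.9, 29.6 and 36.4 scaled reads untreated and 247, 279 and 160 treated (log2 fold change 2.94 ± 0.27 SE). Sprr2j-ps, annotated as a pseudogene, had 6.59, 6.43 and 7.95 untreated and 120, 123 and 65.5 treated, a log2 fold change of 3.65. Sprr2k had 4.40, 6.43 and 0 untreated and 70.1, 43.6 and 21.9 treated, and its log2 fold change of 3.61 ± 0.74 was the least precise of the subfamily. Its adjusted p of 0.0147 (limma) became 0.0580 without T1 and 0.0508 without T2.

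The other called Sprr2 loci had log2 fold changes between 1.34 and 2.63. Sprr2d had 79.1, 120 and 140 scaled reads in untreated and 525, 443 and 348 in treated skin (log2 fold change 1.97 ± 0.22). Sprr2e had 44.0, 82.3 and 57.9 untreated and 321, 273 and 212 treated, a log2 fold change of 2.14. Sprr2f had 26.4, 19.3 and 35.2 untreated and 209, 179 and 126 treated, a log2 fold change of 2.63. In each of the 3 the lowest treated library was T3 and still exceeded every untreated library. Sprr2g had 108, 90.1 and 105 untreated and 311, 274 and 197 treated, the smallest rise among the called Sprr2 genes at 1.34 ± 0.18. Sprr2a3 had 51.6, 28.3 and 49.99 untreated and 240, 221 and 174 treated, a log2 fold change of 2.30. The combined locus Sprr2a1/2a2 was scarce, with 6.59, 3.86 and 1.14 untreated and 20.4, 24.0 and 26.1 treated, and a log2 fold change of 2.50 ± 0.48. Adjusted p-values of these 6 loci lay between 0.0013 for Sprr2f and 0.0117 for Sprr2a1/2a2 (limma).

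Sprr2h was the exception among the 11. It was the most abundant Sprr2 gene of untreated skin per kilobase, with 255, 304 and 212 scaled reads in untreated and 420, 371 and 290 in treated skin. The lowest treated library, T3, lay below U2, and the log2 fold change of 0.48 ± 0.17 did not pass (adjusted p = 0.0824, limma). Without T3 it was 0.63 (adjusted p = 0.0248, limma). With reads estimated from filled positions it was 0.66 (adjusted p = 0.0397, limma), and in the 4 libraries of like depth (U1, U3, T1 and T2) it was 0.76 (adjusted p = 0.0060, limma).

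**Figure D2:**
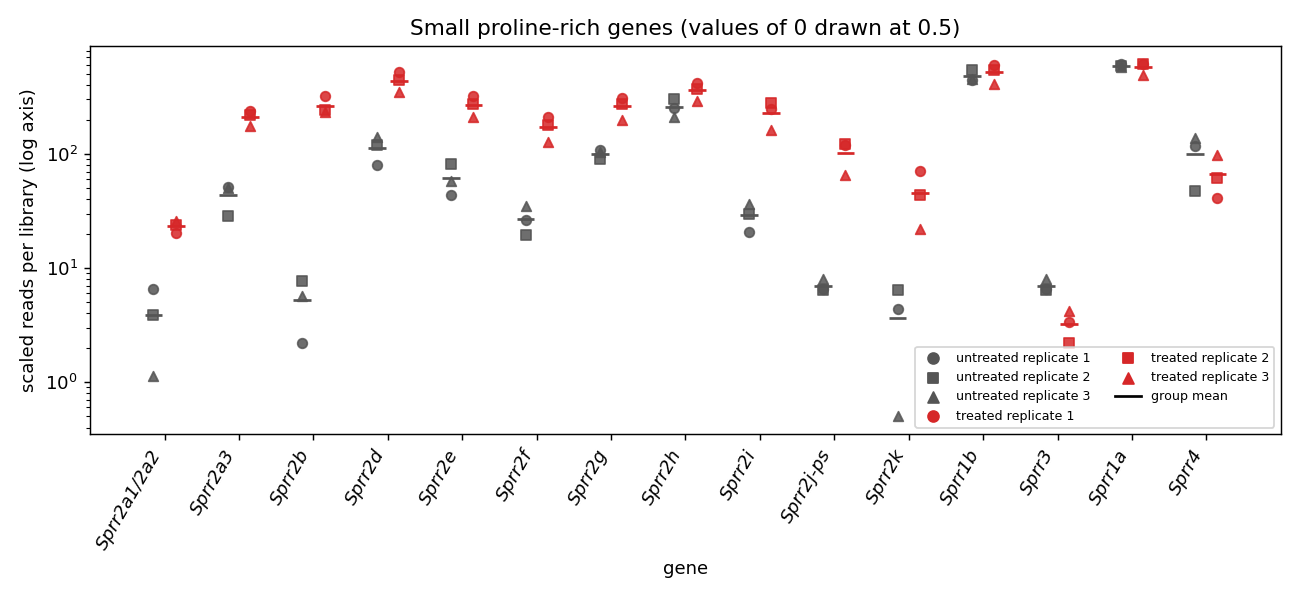
Scaled reads of each Sprr locus in each library on a log axis, with a bar at the mean of each group. Treated points of Sprr2b, at 231 to 319, stand far above untreated points at 2.20 to 7.72, whereas the points of Sprr1a and Sprr1b overlap at the top of the plot.

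The other Sprr genes were not called. Sprr1a, an envelope precursor that keratinocytes switch on in differentiation and after injury, was the most abundant Sprr gene per kilobase. It had 609, 591 and 578 scaled reads in untreated and 619, 619 and 496 in treated skin, a log2 fold change of -0.04 ± 0.10 that changed sign with reads estimated from filled positions (0.084). Sprr1b had 448, 542 and 453 untreated and 605, 542 and 407 treated, a log2 fold change of 0.09 (adjusted p = 0.718, limma), and it passed at 0.34 (adjusted p = 0.0350, limma) when only the 4 libraries of like depth were used. Both genes had up to 0.656 (Sprr1b) and 0.751 (Sprr1a) reads per base, and the groups overlapped. Sprr4 had 116, 47.6 and 137 untreated and 40.7, 61.0 and 97.5 treated, a log2 fold change of -0.54 that did not pass over the 6 libraries. Leaving out 1 library gave Sprr4 values from -1.01 (without U2) to -0.24 (without T1), and in the 4 libraries of like depth it was lower, at -1.33 (adjusted p = 0.0086, limma). Sprr3 did not reach the filter on reads, with 18 reads in untreated and 10 in treated skin, a ratio of 0.477 (95% exact interval 0.197 to 1.09). The plot of Sprr values by library shows the separation of the Sprr2 genes beside the overlap of Sprr1a and Sprr1b.

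Reads of near-identical copies can be shared or lost in counting. Of the stretches of 50 bases in the GENCODE transcript of each gene, 3.55% of those of Sprr2a2 and 3.72% of those of Sprr2a1 occurred in no other gene, so the values of these rows are uncertain. The share was 52.6% for Sprr2a3, 86.3% for Sprr2b, 95.7% for Sprr2d, 89.8% for Sprr2e and 87.5% for Sprr2i, and 99.3% or more for Sprr2f, Sprr2g, Sprr2h, Sprr2j-ps and Sprr2k. Sprr2b shared stretches with the Sprr2a genes. Reads in untreated and treated skin were 13 and 781 for Sprr2b, 113 and 622 for Sprr2a3, and 10 and 71 for Sprr2a1/2a2. The part of shared reads in these values was not tested.

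The Sprr2 loci all had a positive fold change, but Sprr2h was not called. The 250 bases before the RefSeq start of 3 called members and of Sprr2h are therefore shown (GRCm38.p6, which is mm10, plus strand). The windows are chr3:92316455-92316704 for Sprr2b, chr3:92338890-92339139 for Sprr2d, chr3:92407741-92407990 for Sprr2i and chr3:92385435-92385684 for Sprr2h. Capitals mark matches on either strand to the AP-1 motif TGANTCA, the octamer ATGCAAAT (printed here as its reverse complement) and TATAAA.
Sprr2b: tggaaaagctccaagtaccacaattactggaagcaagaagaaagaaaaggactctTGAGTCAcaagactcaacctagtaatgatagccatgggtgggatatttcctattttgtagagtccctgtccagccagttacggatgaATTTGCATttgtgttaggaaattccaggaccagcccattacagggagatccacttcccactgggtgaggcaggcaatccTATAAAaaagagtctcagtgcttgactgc
Sprr2d: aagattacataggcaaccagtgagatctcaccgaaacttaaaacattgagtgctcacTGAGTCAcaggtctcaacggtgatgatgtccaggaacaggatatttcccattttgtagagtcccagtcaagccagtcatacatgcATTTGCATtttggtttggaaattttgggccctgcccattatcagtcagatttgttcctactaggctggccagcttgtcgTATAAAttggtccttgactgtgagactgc
Sprr2i: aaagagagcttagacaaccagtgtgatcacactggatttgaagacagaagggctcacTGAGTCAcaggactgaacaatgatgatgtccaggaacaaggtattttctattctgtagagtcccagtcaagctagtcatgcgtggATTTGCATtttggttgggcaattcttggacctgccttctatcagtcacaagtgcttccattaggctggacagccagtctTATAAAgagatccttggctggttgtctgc
Sprr2h: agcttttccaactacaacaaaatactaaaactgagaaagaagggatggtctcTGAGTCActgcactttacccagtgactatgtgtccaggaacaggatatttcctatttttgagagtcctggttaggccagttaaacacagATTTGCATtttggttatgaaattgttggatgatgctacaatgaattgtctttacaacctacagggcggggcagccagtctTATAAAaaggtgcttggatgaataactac

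Each of the 4 windows held all of these motifs in the same order. Promoters were found for 44 of 51 loci in the RefSeq table, and 10 entries belong to Sprr2 genes. The AP-1, octamer and TATAAA motifs occurred in the same 7 Sprr2 promoters (Sprr2b, Sprr2d, Sprr2e, Sprr2f, Sprr2h, Sprr2i and Sprr2k). Over all 27025 promoters of this length, AP-1 occurred in 6.87%, the octamer in 1.61% and TATAAA in 12.97%. All of them occurred in 13 promoters (0.0481%), of which 7 were the Sprr2 promoters. These motifs are the ones, of 11 searched, that the 7 Sprr2 promoters share, so the count describes them and is no test. The 4 windows also resemble each other outside the motifs, so they are not independent. Sprr2h had the motifs and was not called, and Sprr2a1, Sprr2a2 and Sprr2a3 lacked them in this window and were called. A match of letters is not evidence of binding.

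The coding sequences of the Sprr2 gene with the largest change and of the gene that did not pass are shown to compare the repeats that make up these proteins (GENCODE, GRCm38, plus strand). Sprr2b is whole, at chr3:92317449-92317742, and Sprr2h is given for its first 300 bases, at chr3:92386632-92386931. Capitals mark in-frame runs of 15 bases that code for cysteine, proline, an acidic residue, proline and cysteine.
Sprr2b: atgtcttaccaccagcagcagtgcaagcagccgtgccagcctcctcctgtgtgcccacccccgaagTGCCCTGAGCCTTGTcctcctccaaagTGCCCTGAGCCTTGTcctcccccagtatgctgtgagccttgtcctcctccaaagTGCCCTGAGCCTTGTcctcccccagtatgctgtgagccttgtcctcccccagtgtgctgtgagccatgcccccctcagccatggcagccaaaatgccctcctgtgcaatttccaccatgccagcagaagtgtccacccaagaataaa
Sprr2h: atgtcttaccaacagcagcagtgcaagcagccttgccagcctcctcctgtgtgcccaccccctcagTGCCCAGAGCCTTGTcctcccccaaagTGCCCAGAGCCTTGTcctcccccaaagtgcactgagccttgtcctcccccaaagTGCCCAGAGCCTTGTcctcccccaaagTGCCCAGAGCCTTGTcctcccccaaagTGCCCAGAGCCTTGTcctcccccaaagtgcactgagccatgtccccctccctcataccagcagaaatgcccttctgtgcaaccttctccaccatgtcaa

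Sprr2b had 3 such runs in 294 coding bases and Sprr2h had 5 in 324. Sprr2d also had 5, and it rose. Only 1 Sprr2 locus was not called, so a link between the number of these runs and the calls was not tested. Sprr2e, Sprr2f and Sprr2g had 4 each.

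Late cornified envelope genes split by subfamily. All 14 Lce1 genes were lower on average in treated skin, with a median log2 fold change of -0.38, and 4 of them passed the test. Their sums were 4586, 5358 and 4167 scaled reads in the untreated libraries and 3053, 2810 and 4026 in the treated libraries. All 6 Lce3 genes were higher on average, with a median of 0.61, and 3 passed. Their sums were 491, 520 and 601 scaled reads untreated and 1082, 916 and 699.9 treated. For the Lce1 sum all treated libraries lay below all untreated ones, but the gap was narrow, between 4026 in T3 and 4167 in U3. For the Lce3 sum all treated libraries lay above. Over all tested genes, 15.6% lay wholly below and 21.7% wholly above. Lce6a had 212, 220 and 218 untreated and 124, 126 and 193 treated and was not called (log2 fold change -0.58, adjusted p = 0.0563, limma). Without T3 the change of Lce6a was -0.78 (adjusted p = 0.0053, limma), and without both U2 and T3 it was -0.77 (adjusted p = 0.0078, limma). Lce6a also passed with TMM scaling, by DESeq2 and in the authors' deposited table.

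Lce1m fell the most. It had 638, 705 and 531 scaled reads in untreated and 174, 137 and 311 in treated skin, a log2 fold change of -1.66 ± 0.26 (adjusted p = 0.0057, limma). Per kilobase it was the highest Lce gene of untreated skin at 715 and the lowest Lce1 gene of treated skin at 237, level with Lce1j at 238. It had up to 0.665 reads per base, and with reads estimated from filled positions the change was -2.10. Lce1l had 292, 351 and 278 untreated and 145, 120 and 233 treated, with a log2 fold change of -0.94 ± 0.22 (adjusted p = 0.0248, limma). Leaving out U1, U2, T1 or T2 gave an adjusted p of 0.0677, 0.0827, 0.0756 or 0.0727 (limma).

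The other Lce1 changes were small. Lce1a2 had 412, 488 and 393 untreated and 304, 296 and 358 treated (log2 fold change -0.43 ± 0.12, adjusted p = 0.0371, limma). Lce1c had 400, 427 and 339 untreated and 258, 236 and 335 treated (-0.50 ± 0.15, adjusted p = 0.0496, limma). The groups did not overlap in either gene, but the gap for Lce1c was narrow, between 335 in T3 and 339 in U3. Leaving out U1, U2, T1 or T2 gave Lce1a2 an adjusted p of 0.0856, 0.112, 0.0980 or 0.130 (limma). The values for Lce1c were 0.139, 0.151, 0.125 and 0.161 in the same order. Both calls were also lost with reads estimated from filled positions.

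Lce1a1 and Lce1f, with Lce1a2 the most abundant Lce genes per kilobase over all samples, were not called. Lce1a1 had 412, 470 and 383 untreated and 328, 294 and 363 treated. Lce1f had 356, 434 and 347 untreated and 306, 282 and 329 treated. In both the treated libraries lay below the untreated ones by a narrow margin. The 10 uncalled Lce1 genes had log2 fold changes between -0.63 for Lce1j and -0.12 for Lce1g. Without T3, Lce1a1 (-0.43), Lce1b (-0.54), Lce1i (-0.72) and Lce1j (-0.85) passed, with adjusted p-values of 0.0352, 0.0308, 0.0102 and 0.0053 (limma). Lce1a1 and Lce1j also passed with TMM scaling, by DESeq2 and in the authors' deposited table. The number of Lce genes called lower depended on the libraries. It was 4 over the 6 libraries and 9 without T3, and it was 1 when U1, U2, T1 or T2 was left out. The share of all tested genes that were lower moved as well, from 7.23% to 8.56% without T3 and to 3.46%, 4.1%, 3.97% and 3.37% without U1, U2, T1 or T2.

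Among the Lce3 genes, Lce3a and Lce3b rose. Lce3a had 36.3, 25.7 and 52.3 scaled reads in untreated and 167, 138 and 94.1 in treated skin (log2 fold change 1.80 ± 0.30, adjusted p = 0.0072, limma). Lce3b had 50.6, 32.2 and 79.5 untreated and 237, 181 and 132 treated (1.80 ± 0.33, adjusted p = 0.01, limma). These neighbours were the lowest Lce genes of untreated skin per kilobase, at 69.9 and 97.1 scaled reads. In treated skin Lce3b was the highest Lce3 gene at 329, level with Lce3c at 325. Lce3e had 73.6, 69.5 and 85.2 untreated and 147, 131 and 95.8 treated (0.69 ± 0.20, adjusted p = 0.0456, limma). Its p rose to 0.0596 without U3 and to between 0.122 and 0.145 when U1, U2, T1 or T2 was left out (limma), and it was 0.0529 by edgeR and 0.0642 by DESeq2. Lce3c, Lce3d and Lce3f had log2 fold changes of 0.19, 0.26 and 0.53 and were not called.

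**Figure D3:**
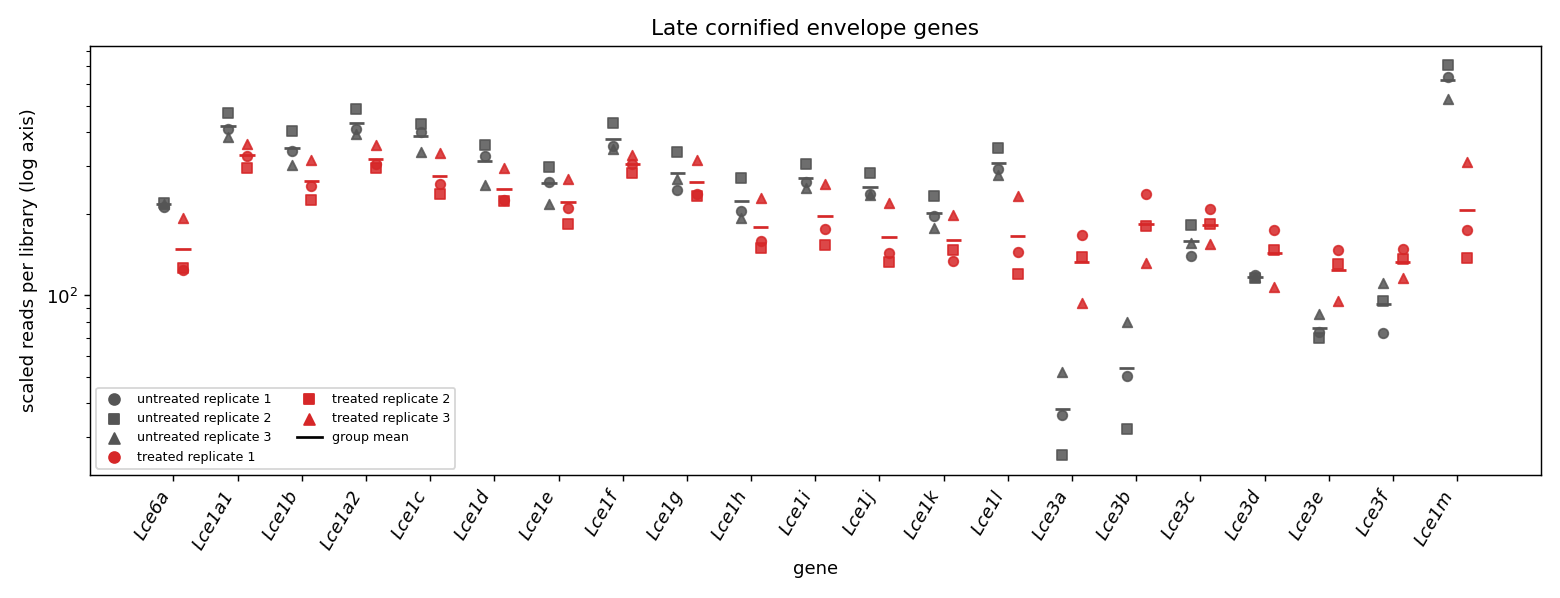
Scaled reads of the 21 Lce genes in each library on a log axis, with a bar at the mean of each group, in gene order. Treated means lie lower in the Lce1 genes, with the widest gap in Lce1m (137 to 311 against 531 to 705), and higher in Lce3a and Lce3b, and T3 is the treated point nearest to the untreated points in all 21 genes.

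The plot of Lce values by library shows the crossing of the subfamilies, with the low untreated points of Lce3a and Lce3b beside the high untreated points of Lce1m.

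The Lce3 genes are near-identical copies. Over the whole coding sequence (GENCODE, GRCm38) the 15 pairs of Lce3 genes were 94.6% to 99.3% identical. Between 50.7% (Lce3d) and 87.9% (Lce3b) of the stretches of 50 bases occurred in no other gene, so the values of single Lce3 genes are uncertain. The share was 72.9% to 100% over the Lce1 genes and 100% for Lce1m.

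The Lce promoters differed from those of the Sprr2 genes in the same motif search. The 250 bases before the start of Lce1m (chr3:93019062-93019311, minus strand), Lce1a2 (chr3:92670316-92670565, minus strand), Lce3a (chr3:92926231-92926480, minus strand) and Lce3b (chr3:92932729-92932978, plus strand) are shown for some of the called members of each subfamily. The windows of Lce1c, Lce1l and Lce3e, which were also called, are not shown. They are from RefSeq on GRCm38.p6, and capitals mark ATAAAAG.
Lce1m: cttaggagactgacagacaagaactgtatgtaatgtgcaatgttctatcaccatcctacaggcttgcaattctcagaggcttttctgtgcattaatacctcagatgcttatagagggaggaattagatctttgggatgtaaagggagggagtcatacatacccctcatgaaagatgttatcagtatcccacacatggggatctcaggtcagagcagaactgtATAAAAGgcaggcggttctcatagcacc
Lce1a2: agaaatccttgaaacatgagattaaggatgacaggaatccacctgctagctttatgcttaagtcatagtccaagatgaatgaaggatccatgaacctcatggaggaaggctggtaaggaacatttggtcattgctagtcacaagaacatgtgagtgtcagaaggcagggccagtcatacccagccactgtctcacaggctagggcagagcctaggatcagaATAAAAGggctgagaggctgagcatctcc
Lce3a: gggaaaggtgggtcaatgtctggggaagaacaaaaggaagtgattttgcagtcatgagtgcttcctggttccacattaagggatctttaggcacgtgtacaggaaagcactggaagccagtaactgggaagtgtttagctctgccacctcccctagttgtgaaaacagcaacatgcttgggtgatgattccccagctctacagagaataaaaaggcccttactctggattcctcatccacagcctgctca
Lce3b: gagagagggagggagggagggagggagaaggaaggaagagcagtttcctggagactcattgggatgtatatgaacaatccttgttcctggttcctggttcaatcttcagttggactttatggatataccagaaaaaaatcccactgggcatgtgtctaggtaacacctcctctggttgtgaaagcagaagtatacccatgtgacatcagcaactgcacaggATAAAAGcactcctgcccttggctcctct

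ATAAAAG was anywhere in the window, on either strand, in 15 of the 19 Lce1 and Lce3 promoters and in 5.14% of all promoters. In the printed windows of Lce1m, Lce1a2 and Lce3b it lies close to the start. It overlaps TATAAA where a T precedes it, as in Lce1m. None of the 19 held the AP-1 motif (0 of 19), whereas 17 of the 45 promoters of the cluster did, among them those of Lor, Ivl, Prr9, Sprr1a, Sprr1b, Crnn, Flg2, Rptn and Tchhl1. The presence of ATAAAAG did not follow the direction of change, being in genes of both subfamilies. On both strands, 0 of the 45 promoters matched the Grhl motif AACCNGGTT (0.244% of all promoters), an NF-kB motif (1.40%) or an interferon response motif (3.04%). C/EBP (TTGCNNAA) was in 4 of 45 and 9.55% of all, STAT (TTCNNNGAA) in 2 and 7.18%, Klf (CCNCNCCC) in 8 and 45.6%, and Ets (CAGGAAG) in 6 and 10.5%. No match says only that these letters are not in the window.

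Among the remaining envelope genes, loricrin fell and involucrin was not called. Lor, at chr3:92080271-92083142, was the most abundant gene of the cluster per kilobase in untreated skin. It had 1514, 1743 and 1367 scaled reads untreated and 1024, 978 and 1160 treated, a log2 fold change of -0.54 ± 0.10 (adjusted p = 0.0113, limma). The groups did not overlap, and the change was -0.79 with reads estimated from filled positions. Ivl had 1025, 1100 and 992 untreated and 768, 781 and 1050 treated. T3 lay inside the untreated range, and the log2 fold change of -0.28 was not called (adjusted p = 0.155, limma). Without T3 it was -0.42 (adjusted p = 0.0081, limma).

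The gene 2310050C09Rik fell, with 626, 706 and 577 scaled reads untreated and 360, 316 and 476 treated (log2 fold change -0.74 ± 0.15, adjusted p = 0.0130, limma). Kprp, which encodes a keratinocyte proline-rich protein, had 1512, 1216 and 1035 untreated and 701, 579 and 1106 treated and was not called (-0.69, adjusted p = 0.0644, limma). Without T3 it was -0.96 (adjusted p = 0.0046, limma). Crct1 had 455, 522 and 417 untreated and 430, 377 and 398 treated, and the groups overlapped. Prr9 went the other way. It had 22.0, 12.9 and 13.6 untreated and 80.3, 80.6 and 199.97 treated, a log2 fold change of 2.72 ± 0.38 (adjusted p = 0.0044, limma), and was highest in T3.

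The fused S100-type genes went in both directions, and no stretch of 50 bases in them occurred in another gene (100% unique for all 6). Summed over the family, the untreated libraries had 6196, 4784 and 4521 scaled reads and the treated libraries 4940, 4455 and 7117. The groups overlapped, and the treated mean was 1.07 times the untreated mean over the 6 libraries and 0.909 times without T3. Rptn, the gene of repetin, an envelope protein of the epidermis and tongue, rose with little spread. It had 1178, 1032 and 1186 scaled reads untreated and 2273, 2071 and 2331 treated, a log2 fold change of 0.98 ± 0.08 (adjusted p = 0.00082, limma). With up to 0.670 reads per base in treated skin, the change was 1.31 with reads estimated from filled positions.

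Flg2, the gene of a filaggrin-like protein of the outer epidermis, fell. It had 3035, 2044 and 1758 scaled reads untreated and 417, 514 and 1240 treated, a log2 fold change of -1.78 ± 0.36 (adjusted p = 0.0140, limma). The groups did not overlap, but the treated libraries spanned a wide range and T3 was nearest to the untreated ones. Without U1 the adjusted p was 0.0522 (limma). Without T3 the change was -2.26 (adjusted p = 0.00049, limma). Hrnr, the gene of hornerin, another filaggrin-like protein, had 1831, 1621 and 1433 untreated and 1581, 1428 and 1820 treated. Its log2 fold change of -0.02 ± 0.11 (adjusted p = 0.941, limma) was within the spread between replicates and took the other sign without U1 (0.072) or T2 (0.066).

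Tchh, the gene of trichohyalin, which hardens the inner root sheath and medulla of hair, rose. It had 145, 81.1 and 134 scaled reads untreated and 616, 400 and 1495 treated, a log2 fold change of 2.61 ± 0.42 (adjusted p = 0.0064, limma). Its relative Tchhl1 had 5.49, 5.15 and 10.2 untreated and 17.0, 20.7 and 44.5 treated (1.77 ± 0.44, adjusted p = 0.0278, limma). Leaving out U1, U2, T2 or T3 gave an adjusted p of 0.0872, 0.0841, 0.0669 or 0.0637 (limma). Crnn, the gene of cornulin, a protein best known from stratified mucosa, had 2.20, 1.29 and 0 untreated and 36.2, 21.8 and 187 treated. Its 3 reads in untreated against 274 in treated skin gave a ratio of 78.4 (95% exact interval 26.5 to 382, counting error only) and a log2 fold change of 4.80 ± 0.77 (adjusted p = 0.0063, limma). Its untreated level was at the floor of 3 reads over the group, so the size of its change is poorly bounded.

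Tchh and the keratins of the inner root sheath were in the same order across the treated libraries. The 7 inner root sheath keratin markers summed to 45.1, 48.9 and 42.0 scaled reads in the untreated libraries and to 1298, 334 and 2746 in the treated libraries. Gata3, the other gene of that marker list and a transcription factor also known from the epidermis, was lower, with 963, 901 and 828 untreated and 656, 572 and 775 treated (log2 fold change -0.43, adjusted p = 0.0338, limma). With Gata3, the sum over all 8 markers was 870 to 1008 in untreated skin and 1954, 906 and 3521 in T1 to T3, so that T2 lay inside the untreated range. Tchh was likewise highest in T3 and lowest of the treated in T2, as was Crnn. That order was not particular to these genes. Rptn (2273, 2071 and 2331 in T1 to T3), Lce1m (174, 137 and 311) and Kprp (701, 579 and 1106) had it too. Prr9 (80.3, 80.6 and 199.97) and Tchhl1 (17.0, 20.7 and 44.5) were lowest of the treated in T1. Krt72 had no read in any untreated library. The 6 hair shaft markers with a row summed to 10.3 to 11.4 in untreated and 41.4 to 376 in treated skin, with Krt81 at 0 in the untreated group. The part of these hair follicle genes in the rise of Tchh, Tchhl1, Crnn or Prr9 was not tested. Without T3, the log2 fold changes were 2.08 for Tchh, 3.91 for Crnn, 2.29 for Prr9 and 1.37 for Tchhl1, with adjusted p-values of 0.0019, 0.0046, 0.0027 and 0.0637 (limma).

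**Figure D4:**
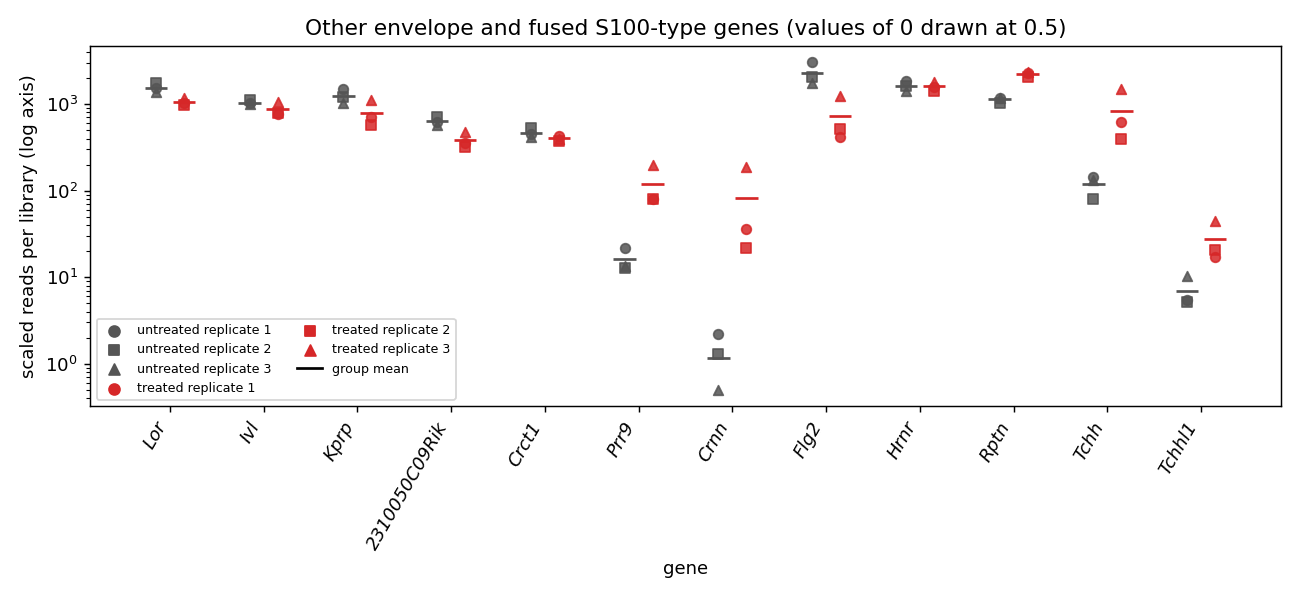
Scaled reads of the 6 other envelope genes and the 6 fused S100-type genes in each library on a log axis, with a bar at the mean of each group. Lor and Flg2 lie lower and Rptn, Tchh, Tchhl1, Crnn and Prr9 higher in treated skin, and T3 (treated triangles) is the highest treated point of all 6 fused S100-type genes.

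The plot of other envelope and fused S100-type genes shows the narrow groups of Rptn beside the wide treated groups of Flg2, Tchh and Crnn. The 2 S100 genes at one end of the region were not called. S100a10 had 407, 462 and 404 scaled reads untreated and 415, 364 and 302 treated. S100a11 had 171, 198 and 178 untreated and 185, 171 and 146 treated, and the groups overlapped in both. At the other end of the region, Pglyrp3, the gene of a secreted protein that binds bacterial cell wall, had 125, 87.5 and 92.0 untreated and 211, 150 and 170 treated (log2 fold change 0.80 ± 0.19, adjusted p = 0.0244, limma). Leaving out U2, U3 or T1 gave an adjusted p of 0.0736, 0.0624 or 0.0768 (limma), and the 4 libraries of like depth gave 0.0585.

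T3 stood apart within the treated group. The 38 of 51 loci at which it was the treated library nearest to the untreated mean included all 21 Lce genes and 10 of 11 Sprr2 loci. Over all tested genes T3 was nearest for 34.9%. It was the highest treated library in all 14 Lce1 genes and all 6 fused S100-type genes, and the lowest in all 6 Lce3 genes and 10 of 11 Sprr2 loci. T3 was also the deepest library, and with reads estimated from filled positions it was nearest at 40 of 51 loci. Neutrophil markers were lower in T3 than in the other treated libraries, with sums over 8 genes of 3472, 2920 and 1310 scaled reads in T1 to T3 and of 381 to 575 in untreated skin. Ly6g had no read in any untreated library. The part of either in the values of T3 was not tested. Without T3, 14 loci of the cluster were lower, and in the 4 libraries of like depth (without U2 and T3) also 14, beside 7 over all 6. Of all tested genes, 8.56% were lower without T3 and 8.91% in the 4 libraries, beside 7.23% over all 6. Both settings added Ivl, Kprp, Lce6a, Lce1b, Lce1i and Lce1j to the 7.

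**Figure D5:**
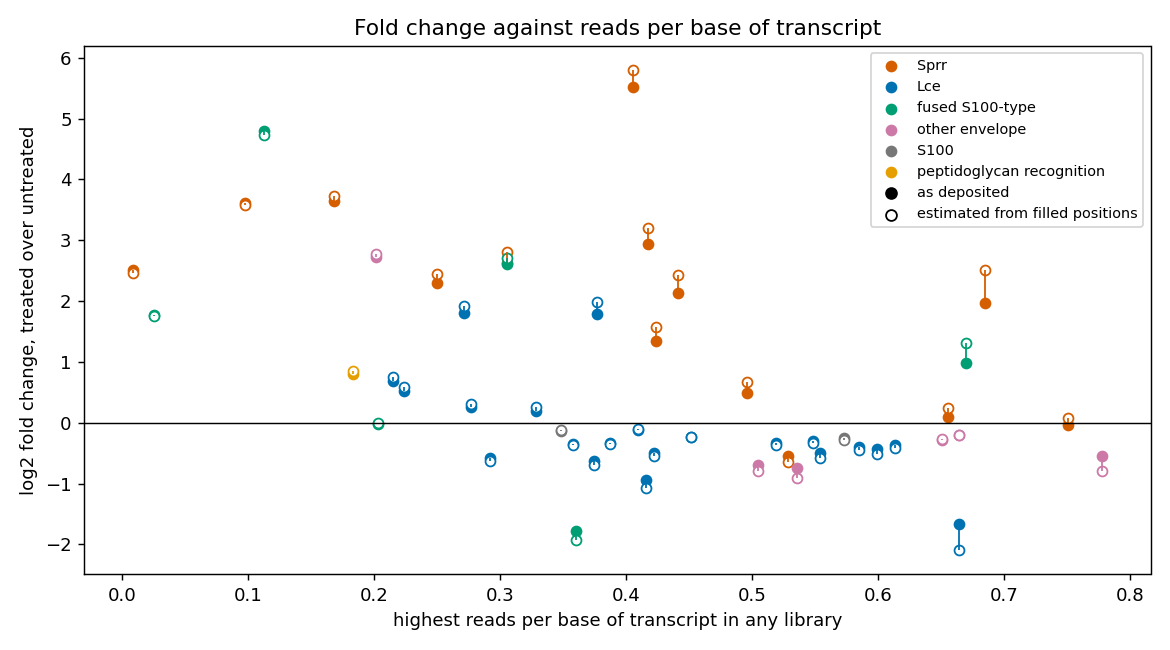
Log2 fold change of each tested locus against its highest number of reads per base of transcript in any library, as deposited (filled points) and with reads estimated from filled positions (open points), joined by a line. The lines are short below 0.3 reads per base and longest for Sprr2d, Lce1m and Rptn at about 0.67 to 0.69, where the estimate is farther from 0 than the deposited value.

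The plot against reads per base shows which changes depend on how full the transcripts were. Genes with few reads per base, such as Crnn (4.80 as deposited and 4.73 estimated) and Tchhl1 (1.77 and 1.75), moved little. Sprr2d moved from 1.97 to 2.51, Lce1m from -1.66 to -2.10 and Lor from -0.54 to -0.79.

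Genes of the cornified envelope and granular layer outside chromosome 3 showed no common direction. Of 37 tested, 5 were higher and 4 lower, beside 9.26% and 7.23% of all tested genes, with a median log2 fold change of -0.12. Those counts are near the shares over all genes. The 4 with the smallest p were Tgm3, Padi3, Casp14 and Sbsn. Tgm3, a transglutaminase that cross-links small proline-rich proteins and trichohyalin, had 198, 192 and 219 scaled reads untreated and 959, 645 and 633 treated (log2 fold change 1.85 ± 0.16, adjusted p = 0.00082, limma). Padi3, which converts arginine to citrulline in trichohyalin and filaggrin, had 3.30, 3.86 and 5.68 untreated and 62.2, 24.0 and 155 treated (3.60, adjusted p = 0.0067 by limma and 0.0508 by limma-voom). Its treated libraries were in the same order as those of Tchh, an order also found in Rptn and Lce1m. Casp14, a protease that processes filaggrin, had a log2 fold change of 0.48 ± 0.09, and Sbsn, the gene of suprabasin, one of -0.39 ± 0.07. The count of higher genes was 3 without U1 and 3 without U2, and that of lower genes was 1 without U1, 1 without T2 and 8 without T3. Of all tested genes, 4.39% were higher without U1 and 4.83% without U2.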

How the data were processed

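Libraries of 3 untreated and 3 treated whole skin samples came from a stranded kit for mRNA, per the labels' protocols. STAR, DESeq2, bcl2fastq 2.20.0.422 and build mm10 are named in the submitters' processing notes. How reads were counted and filtered is not given in the sources used here. Values deposited by the authors are a scaled signal per gene and library. The same table holds the authors' log2 fold changes, the authors' p-values and adjusted p-values, and the deposited transcript lengths. Each library's values were whole multiples of 1 step, from which reads were recovered.

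Since the deposited values are not raw counts, log2(scaled reads + 1) was tested with limma 3.58.1 (R 4.3.3), letting the spread follow a trend with level. That scale understates the change of low genes. Group was the only term, genes passed filterByExpr of edgeR 4.0.16 (minimum count 10, minimum total 15), and p-values were adjusted by Benjamini-Hochberg over all 15534 genes. The test was checked on simulated data. Libraries of a group differed by more than counting noise (chi-square per degree of freedom 2.40 to 8.43). Intervals are exact (Clopper-Pearson) and, like floors of 3 reads, cover counting error only. The genes and lists were chosen with earlier results of these data known. Values in every library were given for called members, for the 3 most abundant members of each family per kilobase and for 8 set genes. Of each list outside the cluster, the 4 genes with the smallest p were named, except that 1 gene and some sequences are not reported here. Alternatives were limma-voom, edgeR and DESeq2 1.42.0 on recovered reads, other scalings, pseudocounts (0.5 and 5), filters and thresholds, a replicate block, leaving out libraries, reads estimated from filled positions, summed families and the authors' deposited comparison. Python 3.11.15 and matplotlib 3.10.9 made the figures.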

Additional observations from a re-analysis of the deposited data

How the results depend on the processing

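Of 26 called loci, 15 were called under every alternative: Prr9, 8 Sprr2 loci (Sprr2a3, 2b, 2d, 2e, 2f, 2g, 2i and 2j-ps), Lce3a, Lce3b, Lce1m, Crnn, Rptn and Tchh. The calls of Lce1a2, Lce1c, Lce1l, Lce3e, Tchhl1, Pglyrp3, Sprr2k and Flg2 were lost when some libraries were left out, and those of Lor, 2310050C09Rik and Sprr2a1/2a2 only at adjusted p under 0.01. Libraries with the same replicate number had weak correlations of deviations (-0.085, -0.055 and 0.054), which cannot show whether the samples were paired. With the replicate block, Lce genes lower numbered 2 in place of 4 and no other count of the cluster moved by over 1.5 times. The block added Sprr2h (adjusted p = 0.0352, limma) and lost Lce1a2, Lce1c and Lce3e. Lce genes lower numbered 1 with no trend in the spread, 7 with TMM scaling, 2 with reads estimated from filled positions, 8 in the 4 libraries of like depth, 7 by DESeq2, 1 at adjusted p under 0.01 and 7 in the authors' deposited table. Loci of the cluster lower numbered 3 with no trend, 14 in the 4 libraries of like depth and 1 at adjusted p under 0.01, in place of 7. Flg2, the fused S100-type gene that fell, was not called with no trend or at adjusted p under 0.01 (0 lower). Leaving out each library in turn gave 16 to 19 loci higher and 3 to 14 lower, 9 to 11 Sprr genes higher, 1 to 9 Lce genes lower and 0 to 1 fused S100-type genes lower. Medians of log2 fold change were then 2.1 to 2.36 (Sprr), -0.47 to -0.24 (Lce) and 1.15 to 1.53 (fused S100-type). The Sprr2 genes had a median of 2.50, and their summed reads gave 1.85.

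Signs changed only in genes that were not called. Leaving out each library gave log2 fold changes of -0.097 to 0.062 for Sprr1a, -0.029 to 0.257 for Sprr1b, -0.109 to 0.072 for Hrnr and -0.261 to 0.013 for Lce1g. Sprr1a was at 0.084 with reads estimated from filled positions and at 0.060 in the libraries of like depth, where S100a11 was at 0.026. Cornified envelope genes outside the cluster numbered 2 higher and 0 lower at adjusted p under 0.01, 3 higher and 1 lower with no trend, and 2 higher by limma-voom, in place of 5 and 4. Their lower genes numbered 2 with reads estimated from filled positions and 8 by DESeq2, in the authors' deposited table and in the 4 libraries of like depth. The cause of these differences was not tested. Depth limits Sprr2a1/2a2, Sprr2b, Sprr2j-ps, Sprr2k, Sprr3, Crnn and Tchhl1, which had 3 to 18 reads over the untreated group, and reads per base limit Lor, Sprr1a, Sprr1b, Sprr2d, Rptn and Lce1m.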

Other observations

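Transcription factors of keratinocyte differentiation gave no common direction. Treated skin was higher for 5 and lower for 2 of the 26 tested (adjusted p under 0.05 by limma, beside 9.26% and 7.23% of all tested genes), with a median log2 fold change of 0.039. Among those with the smallest p were Satb1, Ehf and Bnc1. Satb1, a chromatin organiser that is known to act on the epidermal differentiation complex in keratinocytes, fell, with 559, 503 and 454 scaled reads in U1 to U3 and 282, 272 and 309 in T1 to T3 (log2 fold change -0.81 ± 0.10 SE, adjusted p = 0.0032, limma). Ehf, an Ets factor of epithelia, rose, with 757, 645 and 825 untreated and 1429, 1203 and 1170 treated (0.77 ± 0.11, adjusted p = 0.0047, limma). Bnc1, a zinc finger protein of basal keratinocytes, rose by 0.54 ± 0.08 on the same scale. In each of these 3 genes every treated value lay on 1 side of the untreated ones. Over all tested genes, treated values lay wholly above in 21.7% and wholly below in 15.6%. The 3 genes were named for their small p, so this separation adds no evidence. The octamer-binding factors Pou2f3 and Pou3f1 (log2 fold changes -0.20 and 0.04) and the grainyhead factors Grhl1, Grhl2 and Grhl3 (-0.14, 0.49 and 0.15) were not called. The lower factors numbered 1 when U1, U2, T1 or T2 was left out.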
